A study of Danio rerio with 48 samples.

Results

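Yolk tissue was compared with whole embryos of the zebrafish (Danio rerio) at 10 hours post fertilization (hpf), the end of gastrulation. Both groups were wild type (labelled WT) and untreated as far as the labels say, with 4 bulk RNA-seq libraries each of yolk tissue and of intact embryos. These 8 libraries were chosen by tissue and age from 48 labelled samples, of which 32 have a column in the table of counts. The whole embryos include their own yolk, so the comparison sets the yolk against the embryo that contains it, and the yolk tissue was not sorted into cell types. The labels do not say how many embryos went into a library or whether the replicates were separate clutches. The p-values therefore measure the spread between libraries of the same group, which may be technical. Unless stated otherwise, this spread was estimated over all 32 libraries with counts, and not over the 8 of 10 hpf alone. Scatter between libraries of the other ages thus enters the standard errors and p-values given for 10 hpf. Of 36109 genes in the table, 26268 passed the low-count filter and are described here.

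The zebrafish yolk is a large lipid-rich cell. At the blastula stage marginal cells collapse into it and form the yolk syncytial layer, a multinucleate layer that lies between the yolk and the embryo and transcribes its own genes. This layer is known for patterning the adjacent blastoderm, for pulling the enveloping layer over the yolk during epiboly, and for digesting yolk and passing its nutrients on. Lipid is exported as lipoprotein particles: microsomal triglyceride transfer protein loads lipid onto apolipoprotein B in the endoplasmic reticulum, smaller apolipoproteins join the particle, and COPII vesicles carry it out. Hnf4 factors are nuclear receptors known from liver and intestine to drive genes of this pathway, and the study's title places an Hnf4 and lipoprotein axis at its centre.

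Markers of the embryo's own tissues checked the label. Of 10 genes of the enveloping layer and epidermis, all were lower in yolk, and their summed level was 2377 to 2984 TMM-scaled CPM (counts scaled to a common library size) in yolk libraries and 14489 to 18081 CPM in whole-embryo libraries. The median member stood at 1.51% of its whole-embryo level. All 7 neural plate markers were lower too, with sums of 47.9 to 75.5 CPM in yolk and 684 to 762 CPM in whole embryos, and a median of 2.53%. Mesoderm markers were less depleted: 5 of 6 were lower, the sums were 192 to 279 CPM in yolk and 541 to 591 CPM in whole embryos, and the median member stood at 34.3%. The 7 markers of the yolk syncytial layer summed to 29313 to 35103 CPM in yolk and 2015 to 3170 CPM in whole embryos, with 6 higher in yolk and mxtx2 not called. Most of each sum was apobb.1, which averaged 27200 CPM in yolk and 2103 CPM in whole embryos. These 7 genes are also described below, so their sums are no separate check of the label. Germ cell markers summed to 19.5 to 35.8 CPM in yolk and 17.7 to 24.4 CPM in whole embryos, and blood and vessel markers summed to 2.61 to 8.49 CPM in yolk and 19 to 27.5 CPM in whole embryos. None of these markers was at 0 in all yolk libraries. The yolk libraries thus held some of these transcripts, and their part in the results below was not tested. In these bulk samples fewer cells of a type and less RNA per cell cannot be told apart.

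**Figure D1:**
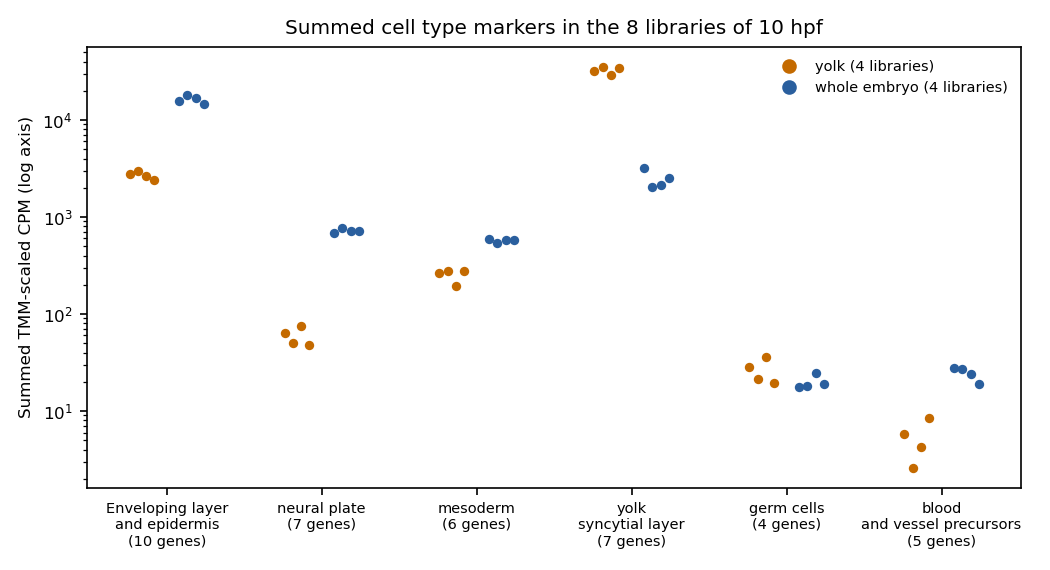
Summed TMM-scaled CPM (log axis) of 6 marker lists in each of the 4 yolk libraries (left of each pair) and the 4 whole-embryo libraries (right). The yolk syncytial layer sums lie at 29313 or more in yolk and at 3170 or less in whole embryos, and the groups overlap only for germ cells.

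Library totals ran from 34338597 to 38073999 counts. The 10 genes with the most counts held 14.35% to 15.21% of the counts in yolk and 6.966% to 7.591% in whole embryos, and the TMM scaling factors were 0.689 to 0.761 in yolk and 1.3 to 1.37 in whole embryos. Scaling by library totals instead moved the median log2 difference of all genes by -0.87. The choice of scale thus decides the direction of genes with small differences. Named genes whose call was lost or gained with library totals are listed near the end. Of all genes tested, 54.5% passed the edgeR test at an adjusted p of 0.05: 24.5% were higher in yolk and 29.9% were lower. Higher calls made up 45.1% of all calls with TMM, 24.2% with library totals and 50.9% with the size factors of DESeq2. A test against a 2-fold difference called 30.7% of genes, 15.8% higher and 14.9% lower. The median log2 difference of all genes was -0.22 with TMM and -1.10 with library totals. Counts of list members below are read against 24.5% higher and 29.9% lower. The lists were chosen with earlier results of these data known, so this is a description and no test. Levels are TMM-scaled CPM, without gene length, as mean ± SD over 4 libraries. They are compared between tissues for a gene, and not between genes.

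Among 6053 genes with at least 20 CPM in yolk, the ratio of yolk to whole embryo did not tail off smoothly. Most genes lay within a few fold of 1, the counts per bin declined toward higher ratios, and a second heap of 292 genes stood between 13.5-fold and 16-fold. The bin just below held 210 genes, and the count fell to 124 genes in the bin from 2.75 to 3.0 on the log2 scale. Between 11.3-fold and 19-fold there were 645 genes, and 19 exceeded 19-fold. The 953 genes above 8-fold had a median of 13.2-fold, and within the 4 pairs of same-numbered libraries that median was 12.6, 14.4, 13.2 and 12.7. Under library totals only 315 genes exceeded 8-fold, and their median of 8.72 is of another set and lies close to that limit. The heap then lay between 8.0-fold and 9.51-fold, so its place depends on the scale. Genes in the band included soat1 at 231 ± 18.2 CPM in yolk and 15.7 ± 3.95 CPM in whole embryos, and ctsc at 26925 ± 2867 CPM in yolk and 1657 ± 221 CPM in whole embryos. The limit of 20 CPM was set on yolk alone, so a gene low in yolk could not enter this distribution. At the other end, of 6156 genes with at least 20 CPM in whole embryos, 80 were in yolk at under 2% of that level and 284 at under 10%.

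**Figure D2:**
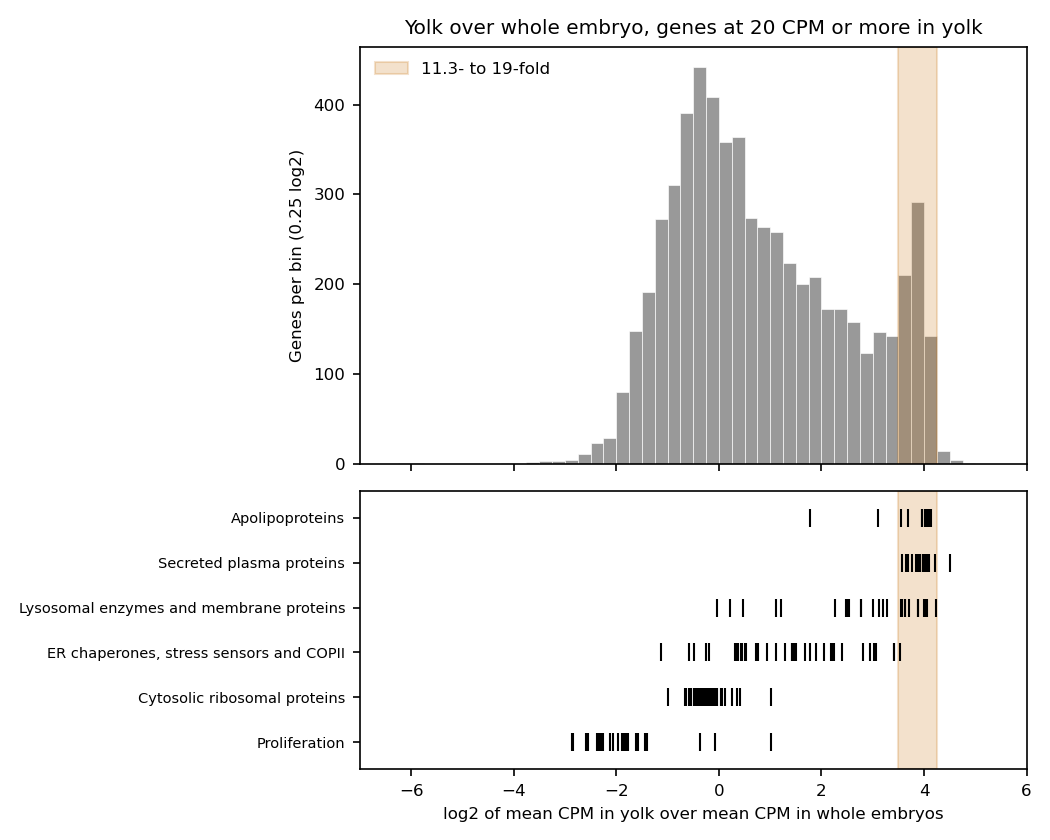
Number of genes per bin of the log2 ratio of mean CPM in yolk over that in whole embryos, for 6053 genes at 20 CPM or more in yolk, with members of 6 lists as ticks below. The shaded band from 11.3-fold to 19-fold holds 645 genes, and genes under 20 CPM in yolk are not drawn.

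Regulators known from liver and intestine were mostly higher in yolk. Of 25 transcription factors in the Hnf4 list, 19 were higher in yolk and 3 lower, with a median log2 difference of 2.02. The nuclear receptor hnf4a had 431, 324, 422 and 413 CPM in the 4 yolk libraries, against 29.4, 19.7, 25.1 and 23.4 CPM in whole embryos. Every yolk library lay above every whole-embryo library, and the difference was 16.3-fold (log2 difference 4.03 ± 0.27 SE, edgeR adjusted p = 4.3e-13). Across all genes tested, the libraries of the tissues did not overlap, in either direction, for 52.0%. Its paralogue hnf4b had 656, 684, 688 and 561 CPM in yolk and 43.3, 41.2, 42.8 and 43.6 CPM in whole embryos (log2 difference 3.92 ± 0.27 SE, edgeR adjusted p = 6.4e-13). The groups were again fully apart, with the third yolk library the highest for hnf4b and the second the lowest for hnf4a. The last family member, hnf4g, was under 1 CPM, with 0.599 ± 0.466 CPM in yolk and 0.144 ± 0.111 CPM in whole embryos. It passed, but 11 of 17 alternative fits lost the call. Among them was the replicate block, a fit of the 8 libraries of 10 hpf with the replicate number as a term (edgeR adjusted p = 0.24). The same block over all 32 libraries also lost it (edgeR adjusted p = 0.057).

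Many partners of these receptors were as unequal. The bZIP factor cebpa averaged 804 ± 89.7 CPM in yolk and 46.6 ± 6.25 CPM in whole embryos. The homeodomain factor onecut1, the zebrafish hnf6, averaged 203 ± 45.4 CPM in yolk and 15.2 ± 4.5 CPM in whole embryos. The membrane-bound factors creb3l3a and creb3l3b, known to act on lipid genes in liver, were higher in yolk, with creb3l3a at 441 ± 45.5 CPM in yolk and 28.5 ± 3.27 CPM in whole embryos, and creb3l3b at 131 ± 14.2 CPM in yolk and 8.45 ± 2.26 CPM in whole embryos. The co-repressor nr0b2a, an orphan receptor without a DNA-binding domain, averaged 460 ± 47.2 CPM in yolk and 31.1 ± 3.81 CPM in whole embryos. Ratios of the Foxa genes were smaller: foxa3 averaged 337 ± 17.7 CPM in yolk and 42.9 ± 5.1 CPM in whole embryos, foxa1 averaged 14 ± 3.03 CPM in yolk and 7.06 ± 0.831 CPM in whole embryos, and foxa2 did not pass the test at 34.5 ± 6.33 CPM in yolk and 25.7 ± 1.74 CPM in whole embryos (with the replicate block, edgeR adjusted p = 0.0038). The coactivator ppargc1a was lower at 0.914 ± 0.26 CPM in yolk and 4.7 ± 1.25 CPM in whole embryos, and cebpd at 2.47 ± 1.16 CPM in yolk and 9.54 ± 1.08 CPM in whole embryos. The receptor pparab was higher at 17.5 ± 4.04 CPM in yolk and 3.05 ± 0.777 CPM in whole embryos, whereas pparaa was under 1 CPM in both tissues and did not pass.

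Of 14 regulators of the yolk syncytial layer and endoderm, 9 were higher and 2 lower, with a median of 2.92. The GATA factor gata6 had 1584, 1390, 1101 and 1129 CPM in yolk, against 100, 94.6, 86.3 and 99.7 CPM in whole embryos. No library overlapped between the tissues (log2 difference 3.77 ± 0.21 SE, edgeR adjusted p = 1.6e-14). Its relatives gata5 and gata4 were both higher, with gata5 at 898 ± 102 CPM in yolk and 91.9 ± 6.17 CPM in whole embryos, and gata4 at 84.6 ± 16.4 CPM in yolk and 6.46 ± 3.24 CPM in whole embryos. The homeobox gene mxtx1, known for its expression in this layer, averaged 164 ± 20 CPM in yolk and 8.67 ± 2.5 CPM in whole embryos. Its relative mxtx2, which acts early in forming the layer, had 0.615, 0.151, 0.152 and 0.153 CPM in yolk and 0.0812, 0.343, 0.0436 and 0.199 CPM in whole embryos. Those libraries overlapped and the test did not pass (edgeR adjusted p = 0.5). The homeobox gene hhex, also expressed in this layer, averaged 50 ± 10.9 CPM in yolk and 2.84 ± 0.736 CPM in whole embryos. Endodermal transcripts were enriched as well, with sox32 at 39.8 ± 8.96 CPM in yolk and 5.17 ± 0.521 CPM in whole embryos, and sox17 at 61.4 ± 6.56 CPM in yolk and 9.4 ± 0.532 CPM in whole embryos; these mark endoderm cells and, for sox32, also the syncytial layer. The lower genes were osr1 and nr2f5, and the chemokine receptor cxcr4a of the endoderm did not pass at 38.9 ± 7.48 CPM in yolk and 47.7 ± 6.32 CPM in whole embryos.

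**Figure D3:**
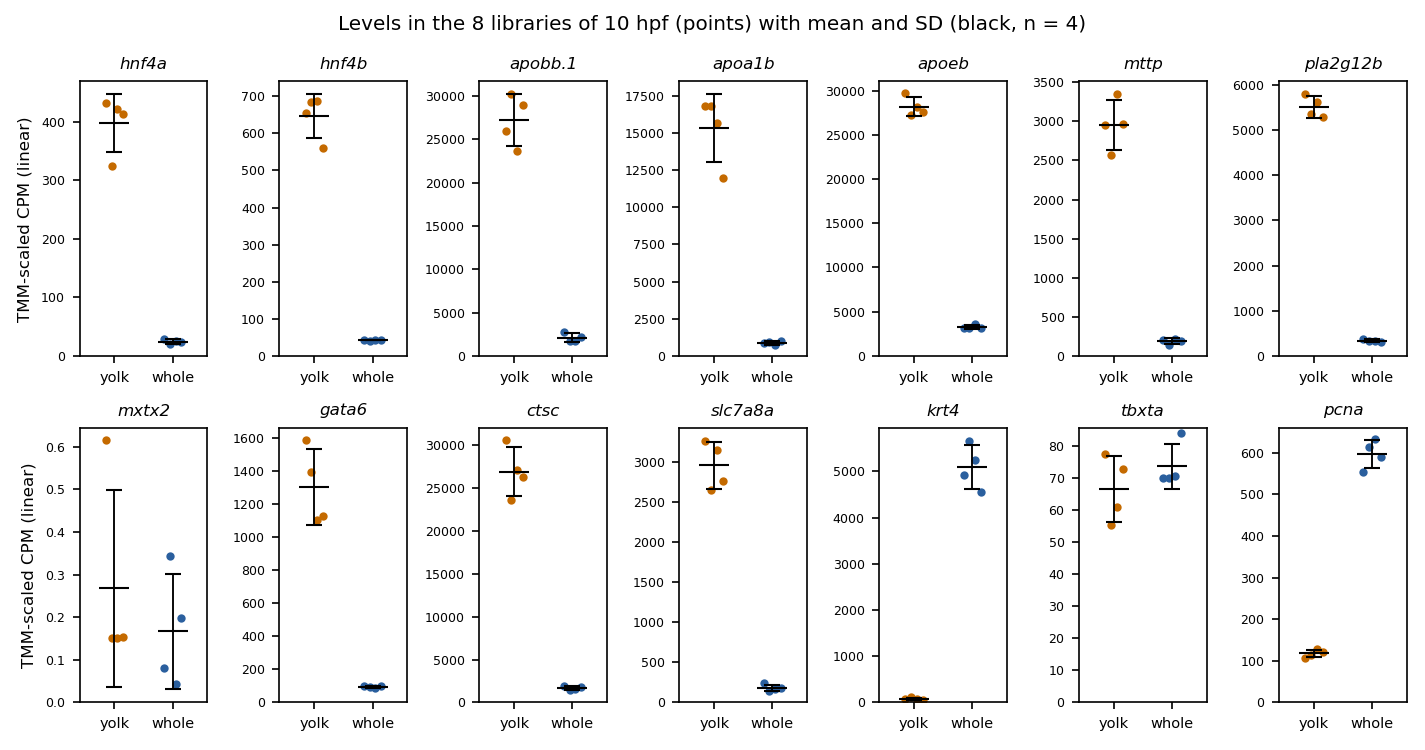
TMM-scaled CPM (linear axes from 0) of 14 genes in the 4 yolk libraries (left) and the 4 whole-embryo libraries (right), with the mean and SD (n = 4) in black. For 10 genes all yolk points lie above all whole-embryo points, for krt4 and pcna all lie below, and for mxtx2 and tbxta the groups overlap.

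Of 18 apolipoproteins tested, 14 were higher and 1 lower, with a median of 3.62. The structural protein of the particle, apobb.1, had 25903, 30230, 23678 and 28990 CPM in yolk, against 2786, 1734, 1745 and 2147 CPM in whole embryos (log2 difference 3.69 ± 0.28 SE, edgeR adjusted p = 3.5e-12). It took 1.97% ± 0.272 of all counts in yolk and 0.28% ± 0.072 in whole embryos. Its close copies could share its reads, with apobb.2 at 396 ± 102 CPM in yolk and 25.5 ± 5.37 CPM in whole embryos, and apoba at 1762 ± 326 CPM in yolk and 151 ± 50.2 CPM in whole embryos. The high-density lipoprotein gene apoa1b had 16839, 16784, 15674 and 11966 CPM in yolk and 864, 928, 709 and 982 CPM in whole embryos (log2 difference 4.14 ± 0.28 SE, edgeR adjusted p = 4.6e-13). Yolk replicate 4 was the lowest, and the groups did not overlap. The copy apoa1a averaged 10295 ± 2215 CPM in yolk and 591 ± 55.2 CPM in whole embryos.

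Apolipoprotein E, the ligand of lipoprotein receptors, differed less than these. Its gene apoeb had 29701, 27281, 28204 and 27634 CPM in yolk, against 3169, 3106, 3625 and 3174 CPM in whole embryos, which is 8.63-fold (log2 difference 3.11 ± 0.21 SE, edgeR adjusted p = 5.9e-13). It still held the largest share of yolk counts, 2.04% ± 0.0527, against 0.433% ± 0.0282 in whole embryos. apoc1, a small exchangeable apolipoprotein, was also under the band at 1320 ± 289 CPM in yolk and 384 ± 26 CPM in whole embryos. apoa2 averaged 1499 ± 282 CPM in yolk and 89.4 ± 15.7 CPM in whole embryos. apoa4b.1 and apoc2, which activates lipoprotein lipase, lay in the same range of ratios, apoa4b.1 at 1629 ± 399 CPM in yolk and 99.6 ± 13.2 CPM in whole embryos, and apoc2 at 568 ± 110 CPM in yolk and 35.1 ± 5.72 CPM in whole embryos. The lower gene was apodb, a lipocalin, at 0.105 ± 0.0576 CPM in yolk and 5.03 ± 1.43 CPM in whole embryos. apoea was under 1 CPM in both tissues and did not pass.

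Of 26 genes of lipoprotein assembly and export, 18 were higher and 3 lower, with a median of 1.62. The lipid-transfer gene mttp had 2947, 2565, 3349 and 2970 CPM in yolk, against 208, 140, 221 and 195 CPM in whole embryos (log2 difference 3.95 ± 0.26 SE, edgeR adjusted p = 2.2e-13). pla2g12b, a catalytically inactive phospholipase that in zebrafish is needed for particle expansion, had 5799, 5351, 5629 and 5280 CPM in yolk and 379, 323, 333 and 299 CPM in whole embryos (log2 difference 4.05 ± 0.23 SE, edgeR adjusted p = 2.2e-14). In both genes the tissues were fully apart, and the ratios of 15.5 and 16.5 fell in the band. In triglyceride synthesis, dgat2 averaged 1822 ± 206 CPM in yolk and 118 ± 25.7 CPM in whole embryos, and mogat2 996 ± 61 CPM in yolk and 60.6 ± 0.903 CPM in whole embryos, whereas dgat1b was lower at 1.53 ± 0.357 CPM in yolk and 8.24 ± 0.336 CPM in whole embryos. soat1, which esterifies cholesterol, averaged 231 ± 18.2 CPM in yolk and 15.7 ± 3.95 CPM in whole embryos. cideb, a lipid droplet protein of lipoprotein-secreting cells, averaged 137 ± 12.4 CPM in yolk and 8.05 ± 1.2 CPM in whole embryos.

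mia2 and tfg, which help load large cargo at exit sites, were higher in yolk, with mia2 at 1243 ± 156 CPM in yolk and 90 ± 12 CPM in whole embryos, and tfg at 926 ± 92.6 CPM in yolk and 155 ± 11 CPM in whole embryos, and mia3 averaged 333 ± 17.6 CPM in yolk and 128 ± 4.52 CPM in whole embryos. The small GTPase sar1b, which in human carries chylomicrons out of the endoplasmic reticulum, did not pass at 105 ± 5.99 CPM in yolk and 92.4 ± 11.6 CPM in whole embryos, while the replicate block called it higher and library totals lower (log2 differences 0.3 and -0.7). Its relative sar1ab was higher at 24.3 ± 5.94 CPM in yolk and 4.09 ± 1.07 CPM in whole embryos. The disulfide isomerase p4hb, a subunit of the lipid-transfer complex, was higher at 392 ± 49.9 CPM in yolk and 172 ± 18.8 CPM in whole embryos. The chaperone canx was lower at 469 ± 39.5 CPM in yolk and 697 ± 62.3 CPM in whole embryos. The droplet gene fitm2 was lower at 3.32 ± 0.235 CPM in yolk and 5.28 ± 1.06 CPM in whole embryos. Its call was lost in 7 of 17 alternative fits, the replicate block among them (edgeR adjusted p = 0.083). The RNA-binding factors a1cf and rbm47, known in mammals for editing of apolipoprotein B transcripts, were both higher, with a1cf at 1181 ± 146 CPM in yolk and 75.3 ± 14.2 CPM in whole embryos, and rbm47 at 1012 ± 137 CPM in yolk and 87.1 ± 14.9 CPM in whole embryos.

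Receptors and lipid carriers were mixed: of 34, 17 were higher and 10 lower, with a median of 1.53. Their share of lower calls, 29.4%, was near the 29.9% of all genes. Among the higher genes were some of lipid uptake and handling inside the cell, while slc27a4, slc27a6 and fabp3 of the same families were lower. The fatty acid carrier slc27a2a averaged 1323 ± 328 CPM in yolk and 66.2 ± 11.9 CPM in whole embryos, which is 20-fold and above the band. cd36, a scavenger receptor, averaged 414 ± 35.1 CPM in yolk and 22.4 ± 3.26 CPM in whole embryos. The fatty acid binding proteins fabp2 and fabp1b.1 were both higher, with fabp2 at 2950 ± 659 CPM in yolk and 183 ± 5.85 CPM in whole embryos, and fabp1b.1 at 1026 ± 228 CPM in yolk and 62.3 ± 5.31 CPM in whole embryos. Lipid efflux genes were higher, with abca1b at 3197 ± 217 CPM in yolk and 257 ± 48.3 CPM in whole embryos against a smaller difference for its copy abca1a at 147 ± 38.1 CPM in yolk and 50.2 ± 10.8 CPM in whole embryos. scarb1, the receptor of high-density particles, averaged 494 ± 3.04 CPM in yolk and 40.8 ± 2.26 CPM in whole embryos. Receptors that take up apolipoprotein B and E particles were found in both directions, and lrp1aa was higher at 3.13 ± 1.99 CPM in yolk and 0.407 ± 0.212 CPM in whole embryos. lrp2a, lrp1ab and ldlrb were lower, with ldlrb at 2.08 ± 0.869 CPM in yolk and 27.7 ± 4.17 CPM in whole embryos, lrp1ab at 59.5 ± 2.3 CPM in yolk and 180 ± 31.5 CPM in whole embryos, and lrp2a at 3.66 ± 1.2 CPM in yolk and 43 ± 5.64 CPM in whole embryos. The lipase lpl was lower at 2.19 ± 0.647 CPM in yolk and 12.4 ± 1.86 CPM in whole embryos. The receptor gene vldlr was lower at 1.79 ± 0.368 CPM in yolk and 2.83 ± 0.363 CPM in whole embryos. Its call was lost in 4 of 17 alternative fits, the replicate block among them (edgeR adjusted p = 0.13).

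Lysosomal genes were higher nearly throughout. Of 37, 30 were higher and 3 lower, with a median of 2.80. The dipeptidyl peptidase ctsc had 30579, 23615, 27139 and 26367 CPM in yolk, against 1866, 1399, 1548 and 1814 CPM in whole embryos (log2 difference 4.02 ± 0.25 SE, edgeR adjusted p = 7.5e-14). It took 1.94% ± 0.166 of the counts in yolk and 0.22% ± 0.0328 in whole embryos. Cathepsins that cleave yolk proteins in fish were as unequal: ctsba averaged 9343 ± 638 CPM in yolk and 565 ± 39.9 CPM in whole embryos, and ctsla averaged 9822 ± 1485 CPM in yolk and 751 ± 118 CPM in whole embryos, but ctsd averaged 835 ± 68.5 CPM in yolk and 145 ± 17.7 CPM in whole embryos. The sphingolipid activator psap averaged 13622 ± 830 CPM in yolk and 930 ± 83.2 CPM in whole embryos. Of the pair that moves cholesterol out of lysosomes, npc2 averaged 3734 ± 178 CPM in yolk and 232 ± 23.8 CPM in whole embryos, and npc1 averaged 1570 ± 114 CPM in yolk and 161 ± 19.7 CPM in whole embryos. The lysosomal regulators tfeb and tfe3a were higher in yolk, with tfeb at 122 ± 10.4 CPM in yolk and 9.91 ± 1.33 CPM in whole embryos, and tfe3a at 244 ± 47.6 CPM in yolk and 20.9 ± 3.5 CPM in whole embryos. The lower genes were gusb, ctso and gla, with gla under 1 CPM in yolk. tpp1, lgmn, lamp1b and mitfa did not pass. The replicate block called tpp1 higher (edgeR adjusted p = 9.0e-04), and library totals called tpp1, lgmn and lamp1b lower.

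Of the vacuolar proton ATPase, which acidifies lysosomes, 19 of 23 genes were higher and 2 lower, with a median of 2.60. For several subunits the copies differed. atp6v1ab averaged 1018 ± 71.2 CPM in yolk and 87.2 ± 10.0 CPM in whole embryos, and atp6v1aa averaged 111 ± 14.6 CPM in yolk and 20.5 ± 0.206 CPM in whole embryos. For subunit E, atp6v1e1b averaged 448 ± 57.1 CPM in yolk and 35.3 ± 7.07 CPM in whole embryos, whereas atp6v1e1a did not pass at 2.3 ± 1.05 CPM in yolk and 2.57 ± 0.374 CPM in whole embryos. For subunit B, atp6v1ba averaged 700 ± 52.2 CPM in yolk and 91.6 ± 3.68 CPM in whole embryos, and atp6v1b2 was lower at 1.37 ± 0.44 CPM in yolk and 2.77 ± 0.377 CPM in whole embryos. The proteolipid genes atp6v0cb and atp6v0ca were both higher, with atp6v0cb at 441 ± 32.9 CPM in yolk and 30.9 ± 4.37 CPM in whole embryos, and atp6v0ca at 638 ± 53.2 CPM in yolk and 168 ± 23.4 CPM in whole embryos.

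Secreted plasma proteins, made in adults by the liver, had 35 of 43 genes higher and 0 lower, with a median of 3.84. The cystatin-related fetub averaged 23907 ± 542 CPM in yolk and 1415 ± 126 CPM in whole embryos, and the iron carrier tfa averaged 15248 ± 2029 CPM in yolk and 924 ± 48.9 CPM in whole embryos. Protease inhibitors and the coagulation zymogen f2 were among them, with serpina1 at 1365 ± 97.9 CPM in yolk and 91 ± 20.2 CPM in whole embryos, a2ml at 1915 ± 202 CPM in yolk and 127 ± 25.1 CPM in whole embryos, and f2 at 196 ± 86.9 CPM in yolk and 11.5 ± 1.88 CPM in whole embryos. Complement c3a.1 averaged 483 ± 289 CPM in yolk and 38.5 ± 23 CPM in whole embryos. The ependymin-related epdl2 averaged 95.2 ± 27.4 CPM in yolk and 4.21 ± 0.919 CPM in whole embryos, a ratio of 22.6. Fibrinogen chains were higher too, with fga at 9.77 ± 3.78 CPM in yolk and 0.464 ± 0.143 CPM in whole embryos, and fgg at 20.8 ± 2.65 CPM in yolk and 1.74 ± 0.795 CPM in whole embryos. The retinol carrier rbp4 averaged 15.7 ± 15.4 CPM in yolk and 1.1 ± 0.79 CPM in whole embryos. The 8 genes that did not pass were ttr, hp, hpxa, shbg, f5, cp, serpinf1 and serpinf2a. Of these hp averaged 3.85 ± 2.44 CPM in yolk and 6.49 ± 3.97 CPM in whole embryos. With the replicate block ttr passed (edgeR adjusted p = 0.0087). With library totals serpinf1 was lower (log2 difference -2.45, edgeR adjusted p = 0.015).

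The secretory machinery was mostly higher too, but with smaller ratios. Of 45 genes of chaperones, stress sensors and COPII, 31 were higher and 4 lower, with a median of 1.24; with library totals 21 were higher and 15 lower. Among the higher genes were regulators of the unfolded protein response, with xbp1 at 915 ± 116 CPM in yolk and 221 ± 17.2 CPM in whole embryos, atf6 at 188 ± 51.5 CPM in yolk and 39.5 ± 7.94 CPM in whole embryos, and the target ddit3 at 163 ± 19 CPM in yolk and 15.3 ± 2.04 CPM in whole embryos. The sec23 genes of the COPII coat were split. sec23b averaged 729 ± 55.6 CPM in yolk and 89.4 ± 7.15 CPM in whole embryos, whereas sec23a was lower at 37.6 ± 2.68 CPM in yolk and 56.5 ± 8.12 CPM in whole embryos, and sec24d averaged 496 ± 37.3 CPM in yolk and 64.2 ± 10.8 CPM in whole embryos. The chaperones hspa5 and calr differed modestly, with hspa5 at 228 ± 67.1 CPM in yolk and 93.9 ± 18.7 CPM in whole embryos, and calr at 39.4 ± 14.6 CPM in yolk and 18.2 ± 3.78 CPM in whole embryos, while calr3b was lower at 149 ± 50.3 CPM in yolk and 327 ± 37.3 CPM in whole embryos. With sec23a, the other lower genes were sdf2l1 at 6.1 ± 1.32 CPM in yolk and 19.2 ± 0.866 CPM in whole embryos, and hyou1 at 38.7 ± 4.96 CPM in yolk and 54.5 ± 7.99 CPM in whole embryos, a call lost in 6 of 17 alternative fits.

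Carriers move the products of digestion across membranes. Of 32 amino acid, peptide and vitamin carriers, 15 were higher and 8 lower, with a median of 0.97, and the share of lower calls was not above that of all genes. The neutral amino acid exchanger slc7a8a had 3267, 2651, 3148 and 2756 CPM in yolk, against 237, 146, 172 and 177 CPM in whole embryos (log2 difference 4.01 ± 0.26 SE, edgeR adjusted p = 1.3e-13). The groups were fully apart. Both genes of its heavy chain were higher, slc3a2a at 2339 ± 313 CPM in yolk and 140 ± 10.8 CPM in whole embryos, and slc3a2b at 1370 ± 288 CPM in yolk and 97.3 ± 28.1 CPM in whole embryos. Another light chain for it, slc7a5, was lower at 0.419 ± 0.189 CPM in yolk and 15.3 ± 2.93 CPM in whole embryos. The exporter slc43a2b averaged 3130 ± 332 CPM in yolk and 208 ± 31.6 CPM in whole embryos, and its relative slc43a1a was lower at 22.5 ± 2.18 CPM in yolk and 137 ± 17.1 CPM in whole embryos. Sodium-coupled carriers slc38a2, slc38a4 and slc38a5b were lower, with slc38a5b at 33.6 ± 5.23 CPM in yolk and 144 ± 12 CPM in whole embryos. The riboflavin carrier slc52a3 averaged 21.5 ± 8.02 CPM in yolk and 0.914 ± 0.506 CPM in whole embryos.

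Of 32 sugar, ion, metal and ammonia carriers, 19 were higher and 6 lower, with a median of 2.13. The glucose carrier of liver and gut, slc2a2, averaged 251 ± 48.9 CPM in yolk and 16.6 ± 2.87 CPM in whole embryos. Ammonia channels were higher, with rhbg at 747 ± 232 CPM in yolk and 50.2 ± 9.87 CPM in whole embryos. rhcga had 39.2, 30.8, 5.24 and 23.5 CPM in yolk and 1.18, 0.9, 0.479 and 0.636 CPM in whole embryos. Its ratio of 30.9 was the highest among genes at 20 CPM or more, but the third yolk library was far below the others. The copper importer slc31a1 averaged 2337 ± 191 CPM in yolk and 187 ± 28.7 CPM in whole embryos, the sulfate carrier slc26a1 872 ± 116 CPM in yolk and 48.8 ± 9.36 CPM in whole embryos, and the iron exporter slc40a1 21.1 ± 6.33 CPM in yolk and 3.08 ± 0.792 CPM in whole embryos. The lower genes included slc20a1b, a phosphate carrier, at 105 ± 22.7 CPM in yolk and 222 ± 17.2 CPM in whole embryos.

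Gluconeogenesis was largely higher in yolk. Of 28 genes with glycogen metabolism, 17 were higher and 3 lower, with a median of 2.04; the replicate block called 17 higher and 1 lower. The mitochondrial pck2, which makes phosphoenolpyruvate, averaged 16377 ± 2249 CPM in yolk and 1046 ± 163 CPM in whole embryos, and the cytosolic pck1 averaged 6.69 ± 2.46 CPM in yolk and 0.495 ± 0.176 CPM in whole embryos. Downstream, fbp1b averaged 3464 ± 338 CPM in yolk and 215 ± 17.7 CPM in whole embryos. Pyruvate carboxylase differed by copy, with pcxb at 914 ± 156 CPM in yolk and 69.5 ± 5.85 CPM in whole embryos, and pcxa not called at 14.2 ± 3.04 CPM in yolk and 17 ± 3.04 CPM in whole embryos. The final step had g6pca.2 at 86 ± 18.1 CPM in yolk and 6.76 ± 3.54 CPM in whole embryos, and slc37a4a, its glucose 6-phosphate carrier, at 191 ± 15.5 CPM in yolk and 12.4 ± 3.0 CPM in whole embryos. aldoaa, the glycolytic aldolase, did not pass at 469 ± 41.3 CPM in yolk and 458 ± 18.5 CPM in whole embryos, and was lower with library totals. Glycogen synthase gys2 averaged 17.3 ± 5.64 CPM in yolk and 1.01 ± 0.546 CPM in whole embryos, and the phosphorylase pygmb of muscle type was lower at 0.618 ± 0.222 CPM in yolk and 20.2 ± 2.92 CPM in whole embryos.

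Fatty acid oxidation differed less, with 16 of 26 higher and 2 lower and a median of 1.14. The largest difference was that of hsd17b4, a peroxisomal enzyme, at 58.5 ± 12.1 CPM in yolk and 4.58 ± 1.04 CPM in whole embryos. Of the genes for entry into mitochondria, slc25a20 averaged 671 ± 118 CPM in yolk and 57.9 ± 8.77 CPM in whole embryos, and cpt1ab averaged 33.5 ± 9.19 CPM in yolk and 4.96 ± 1.28 CPM in whole embryos. Of the acyl-CoA dehydrogenases, acadl was higher at 4.73 ± 1.02 CPM in yolk and 0.764 ± 0.39 CPM in whole embryos, whereas acadvl and acadm were lower, with acadvl at 24.3 ± 0.417 CPM in yolk and 52.9 ± 3.1 CPM in whole embryos, and acadm at 4.08 ± 1.13 CPM in yolk and 7.24 ± 0.511 CPM in whole embryos. Trifunctional protein was carried by hadhab at 220 ± 63.4 CPM in yolk and 35.4 ± 3.3 CPM in whole embryos, and hadhaa did not pass at 12.5 ± 4.93 CPM in yolk and 18.6 ± 9.72 CPM in whole embryos.

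Fatty acid and triglyceride synthesis had 13 of 31 higher and 14 lower, with a median of -0.07. Of 8 acyl-CoA synthetases, 5 were higher and 3 lower. Among the higher were acsl1b at 3321 ± 334 CPM in yolk and 248 ± 48.6 CPM in whole embryos, acsl4a at 2358 ± 137 CPM in yolk and 165 ± 16 CPM in whole embryos, and acsl5 at 929 ± 150 CPM in yolk and 59.5 ± 10.2 CPM in whole embryos. The elongase elovl5 averaged 891 ± 63.6 CPM in yolk and 58.5 ± 10.9 CPM in whole embryos, and lpin2, which yields diacylglycerol, averaged 209 ± 9.8 CPM in yolk and 21.1 ± 1.74 CPM in whole embryos. The enzymes that supply new fatty acids were split. acaca, the cytosolic acetyl-CoA carboxylase, averaged 1.5 ± 0.704 CPM in yolk and 40.4 ± 3.77 CPM in whole embryos, and acacb, the form linked to oxidation, was higher at 115 ± 19.9 CPM in yolk and 51.6 ± 7.72 CPM in whole embryos. The call of acacb was lost with library totals (log2 difference 0.27, edgeR adjusted p = 0.36). aclya averaged 18.5 ± 6.87 CPM in yolk and 46.3 ± 5.35 CPM in whole embryos, and scd averaged 0.477 ± 0.335 CPM in yolk and 4.39 ± 0.476 CPM in whole embryos. elovl7a averaged 0.763 ± 0.184 CPM in yolk and 69 ± 11.1 CPM in whole embryos. The regulator srebf1 was higher at 29 ± 2.66 CPM in yolk and 17.2 ± 4.75 CPM in whole embryos, but its log2 difference was -0.13 with library totals.

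Cholesterol synthesis had no common direction. Of 23 genes, 9 were higher and 6 lower, with a median of -0.14; with library totals 5 were higher and 11 lower. Early enzymes hmgcs1 and fdps were both higher, with hmgcs1 at 243 ± 27.9 CPM in yolk and 23.4 ± 2.02 CPM in whole embryos, and fdps at 726 ± 199 CPM in yolk and 63.7 ± 11.9 CPM in whole embryos, and the rate-limiting reductase hmgcrb averaged 90.4 ± 6.16 CPM in yolk and 43.2 ± 3.51 CPM in whole embryos. Of the squalene and lanosterol steps, sqlea and cyp51 were lower, with sqlea at 0.343 ± 0.191 CPM in yolk and 8.84 ± 0.95 CPM in whole embryos, and cyp51 at 5.61 ± 2.59 CPM in yolk and 36.6 ± 5.3 CPM in whole embryos, whereas fdft1 and lss were higher at under 5 CPM in yolk. The call of lss was lost in 9 of 17 alternative fits, the replicate block among them (edgeR adjusted p = 0.13 with the block). The last step, dhcr7, was higher at 94.3 ± 13.5 CPM in yolk and 9.79 ± 3.68 CPM in whole embryos. The feedback protein insig1 was higher at 109 ± 6.09 CPM in yolk and 10.1 ± 2.24 CPM in whole embryos, and srebf2 did not pass at 55.3 ± 11.6 CPM in yolk and 60.7 ± 11.1 CPM in whole embryos.

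Amino acid breakdown had 17 of 42 higher and 9 lower, with a median of 0.47; with library totals 13 were higher and 13 lower. In methionine metabolism, bhmt, which remethylates homocysteine, averaged 10293 ± 2668 CPM in yolk and 594 ± 33.1 CPM in whole embryos, and mat1a averaged 524 ± 153 CPM in yolk and 33.8 ± 11.2 CPM in whole embryos. The next enzymes of transsulfuration were lower, with cbsb at 19.6 ± 1.72 CPM in yolk and 115 ± 4.72 CPM in whole embryos, and cth at 30.6 ± 3.25 CPM in yolk and 78.1 ± 5.18 CPM in whole embryos. Ammonia capture was split by copy, with glula at 8480 ± 533 CPM in yolk and 540 ± 47.5 CPM in whole embryos, and glulb lower at 107 ± 10.5 CPM in yolk and 147 ± 13.3 CPM in whole embryos. The call of glulb was lost with DESeq2 size factors (edgeR adjusted p = 0.092) and with the DESeq2 Wald test (adjusted p = 0.09). glud1a averaged 1445 ± 132 CPM in yolk and 104 ± 10.2 CPM in whole embryos. Glycine cleavage had gldc at 969 ± 131 CPM in yolk and 99.4 ± 9.85 CPM in whole embryos. The urate oxidase uox was lower at 0.6 ± 0.197 CPM in yolk and 55.1 ± 3.75 CPM in whole embryos.

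Retinoid handling divided between copies, with 10 of 23 higher, 8 lower and a median of 1.11. The dehydrogenase that makes retinal from retinol had rdh10b at 279 ± 23.7 CPM in yolk and 53.3 ± 3.99 CPM in whole embryos, and rdh10a at 5.02 ± 1.42 CPM in yolk and 61.1 ± 7.79 CPM in whole embryos. The enzyme of the reverse reaction had dhrs3b at 501 ± 71.8 CPM in yolk and 56.2 ± 3.44 CPM in whole embryos, and dhrs3a at 3.42 ± 0.695 CPM in yolk and 13.9 ± 4.09 CPM in whole embryos. The carotenoid oxygenase bco2l averaged 195 ± 70.8 CPM in yolk and 13.2 ± 5.11 CPM in whole embryos. The synthetic enzyme of retinoic acid, aldh1a2, was lower at 2.75 ± 0.597 CPM in yolk and 55.7 ± 13.5 CPM in whole embryos. Its degrading enzyme cyp26a1 was lower at 20.6 ± 6.61 CPM in yolk and 70.9 ± 3.35 CPM in whole embryos, and the binding protein crabp2b at 26.1 ± 4.4 CPM in yolk and 267 ± 57.5 CPM in whole embryos.

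Mitochondrially encoded transcripts were higher in yolk, while ribosomal proteins had a median near that of all genes. All 12 mitochondrially encoded transcripts were higher, with a median of 1.29, and with library totals 5 were higher and 0 lower. mt-co1 had 10721, 12967, 11854 and 10475 CPM in yolk, against 4494, 5199, 4912 and 4264 CPM in whole embryos. Their share of all counts was 2.3% to 3.25% in yolk and 1.74% to 2.35% in whole embryos, which overlap. The 86 nuclear genes of the respiratory chain and ATP synthase had 24 higher and 9 lower with a median of 0.11, but 4 higher and 54 lower with library totals. The 81 cytosolic ribosomal proteins had 1 higher and 30 lower with a median of -0.29, the replicate block called 4 higher and 24 lower, and library totals called 0 higher and 77 lower. With TMM 37.0% of them were lower, against 29.9% of all genes, whose median was -0.22. In the test beyond 2-fold 0 were higher and 0 lower. The largest of the lower differences were those of rpl9 at 3.11 ± 0.425 CPM in yolk and 6.8 ± 0.798 CPM in whole embryos, and rpl22l1 at 37.8 ± 6.71 CPM in yolk and 75.6 ± 17.4 CPM in whole embryos. Other lower members were rpsa at 755 ± 32.1 CPM in yolk and 1194 ± 137 CPM in whole embryos, and rpl3 at 1119 ± 75.9 CPM in yolk and 1470 ± 167 CPM in whole embryos. The call of rpl3 was lost in 4 of 17 alternative fits. The higher gene was rps27l at 21.9 ± 4.36 CPM in yolk and 10.8 ± 3.64 CPM in whole embryos, a call lost with library totals (log2 difference 0.15, edgeR adjusted p = 0.7). The elongation factor eef1a1l1 held 1.62% ± 0.137 of the counts in yolk and 1.67% ± 0.074 in whole embryos, and its direction depends on the scale, with a log2 difference of 0.83 by TMM and -0.05 by library totals.

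**Figure D4:**
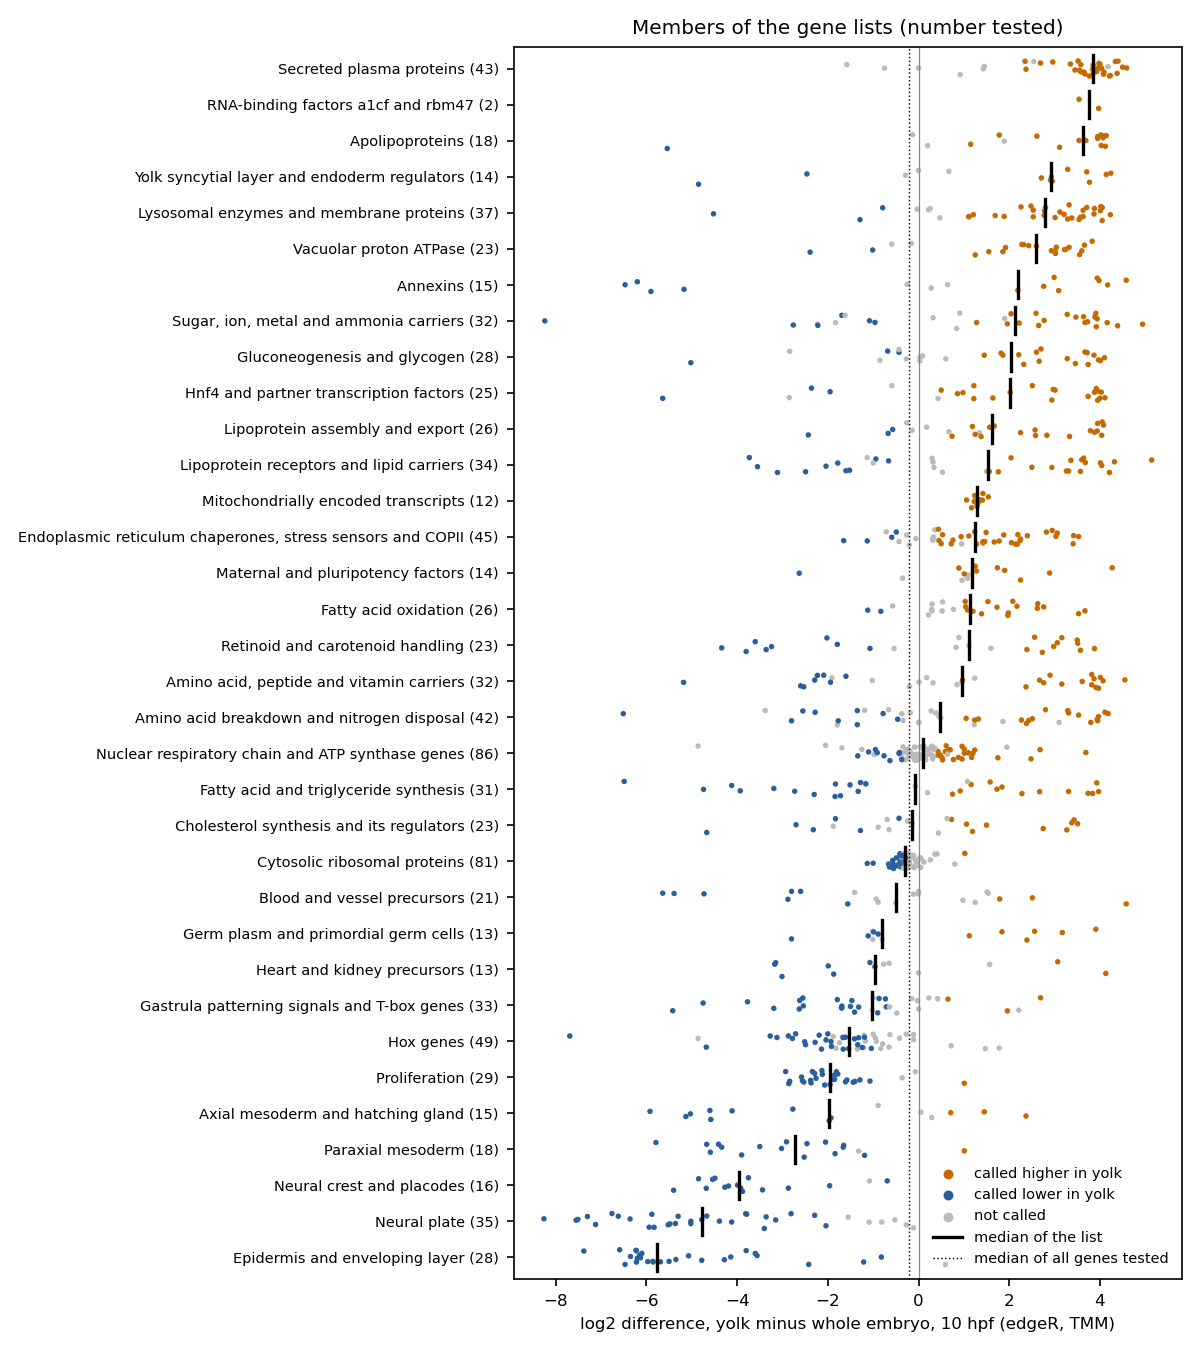
log2 difference of yolk minus whole embryo for each member of 34 gene lists, coloured by its call, with the list's median as a black bar and the median of all genes tested as a dotted line. Medians run from 3.84 for secreted plasma proteins to -5.77 for epidermis and enveloping layer.

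The embryo's own programmes were mostly lower. Proliferation genes had 1 of 29 higher and 26 lower, with a median of -1.95. The replication clamp pcna had 107, 115, 128 and 122 CPM in yolk, against 554, 614, 633 and 589 CPM in whole embryos (log2 difference -2.34 ± 0.17 SE, edgeR adjusted p = 1.7e-12). The yolk stood at 19.8% of the whole-embryo level, and every yolk library was below every whole-embryo library. mki67 averaged 194 ± 13.1 CPM in yolk and 813 ± 66 CPM in whole embryos, and the helicase subunit mcm2 averaged 49.5 ± 7.67 CPM in yolk and 360 ± 30.1 CPM in whole embryos. The exception was gmnn, an inhibitor of replication licensing, at 116 ± 42.1 CPM in yolk and 57.4 ± 11 CPM in whole embryos. Its call was lost with library totals (log2 difference 0.14, edgeR adjusted p = 0.61). ccnb3 and cdt1, the factor that gmnn inhibits, did not pass, but were lower with library totals (log2 differences -0.94 and -1.24).

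Epidermis and enveloping layer had the lowest median of the 34 lists, with 0 of 28 higher, 27 lower and a median of -5.77. The keratin krt4 had 83.8, 107, 75.4 and 59 CPM in yolk, against 4915, 5661, 5254 and 4555 CPM in whole embryos (log2 difference -5.97 ± 0.69 SE, edgeR adjusted p = 2.4e-08). That is 1.6% of the whole-embryo level. krt5 averaged 42.5 ± 15.8 CPM in yolk and 3012 ± 384 CPM in whole embryos, and the periplakin gene ppl averaged 4.53 ± 1.71 CPM in yolk and 436 ± 29.7 CPM in whole embryos. A pair of keratins were far less depleted: krt8 at 1390 ± 120 CPM in yolk and 2461 ± 230 CPM in whole embryos, and krt18a.1 at 1079 ± 98.3 CPM in yolk and 2492 ± 224 CPM in whole embryos. They made up most of the enveloping layer sum in yolk given above.

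Neural plate genes had 0 of 35 higher and 29 lower, with a median of -4.78. The forebrain genes lhx2b and rx3 were both lower, with lhx2b at 0.363 ± 0.202 CPM in yolk and 57.5 ± 5.37 CPM in whole embryos, and rx3 at 0.478 ± 0.535 CPM in yolk and 66.9 ± 8.53 CPM in whole embryos, and the midbrain gene en2a averaged 0.0953 ± 0.0964 CPM in yolk and 18.5 ± 1.48 CPM in whole embryos. rx2 had 0 counts in all 4 yolk libraries. The 6 genes that did not pass were hoxb1b, hoxb1a, gbx2, her5, sox21b and ascl1b. With the replicate block her5 and ascl1b were lower (edgeR adjusted p = 0.0013 and 0.006). They were also lower in a fit of the 8 libraries with no block (edgeR adjusted p = 0.00076 and 0.0053). hoxb1b, a hindbrain gene, had 111, 127, 103 and 126 CPM in yolk and 154, 125, 149 and 134 CPM in whole embryos, gbx2 averaged 16.5 ± 2.89 CPM in yolk and 23.7 ± 1.72 CPM in whole embryos (lower with the replicate block, edgeR adjusted p = 0.034) and hoxb1a averaged 9.3 ± 4.67 CPM in yolk and 10.0 ± 1.87 CPM in whole embryos. Of 49 Hox genes, 0 were higher and 26 lower, with a median of -1.54. Neural crest and placode genes had 0 of 16 higher and 15 lower, with a median of -3.96, with tfap2a at 5.44 ± 2.6 CPM in yolk and 230 ± 22.2 CPM in whole embryos.

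Mesoderm and margin genes had medians closer to 0 than epidermis and neural plate. Paraxial mesoderm had 1 of 18 higher and 16 lower, with a median of -2.72. msgn1 of the presomitic mesoderm averaged 113 ± 28.6 CPM in yolk and 258 ± 11.5 CPM in whole embryos, whereas meox1 of the somites averaged 3.03 ± 1.56 CPM in yolk and 73.2 ± 3.89 CPM in whole embryos. The exception was foxc1b at 27.8 ± 9.27 CPM in yolk and 13.8 ± 2.25 CPM in whole embryos. Its call was lost with library totals (log2 difference 0.11, edgeR adjusted p = 0.82) and without whole-embryo replicate 2 or yolk replicate 1. Axial mesoderm and hatching gland had 3 of 15 higher and 9 lower, with a median of -1.97. The higher ones were dand5, cd63 and lamc1, of which the laminin lamc1 averaged 1115 ± 22.2 CPM in yolk and 682 ± 56.1 CPM in whole embryos, and reversed to a log2 difference of -0.17 with library totals. The hatching enzyme he1.1 averaged 1.63 ± 1.71 CPM in yolk and 53.4 ± 8.67 CPM in whole embryos.

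Gastrula patterning genes had 3 of 33 higher and 20 lower, with a median of -1.02. The T-box gene tbxta, a marker of the margin and notochord, had 77.7, 55.4, 61 and 72.8 CPM in yolk, against 70.2, 70, 70.7 and 84.3 CPM in whole embryos. The libraries overlapped and the difference did not pass (log2 difference -0.15 ± 0.72 SE, edgeR adjusted p = 0.89). Among ventral and posterior genes that did not pass were ved at 27 ± 7.57 CPM in yolk and 27.1 ± 6.38 CPM in whole embryos, eve1 at 16.4 ± 2.22 CPM in yolk and 12.3 ± 1.88 CPM in whole embryos, and wnt11f2 at 26.8 ± 6.55 CPM in yolk and 27.2 ± 2.47 CPM in whole embryos. With the replicate block eve1 passed (edgeR adjusted p = 0.0077). With library totals ved and wnt11f2 were lower (log2 differences -0.88 and -0.91). The ventral homeobox repressors vent and vox were higher, with vent at 560 ± 116 CPM in yolk and 86.6 ± 9.93 CPM in whole embryos, and vox at 352 ± 25.3 CPM in yolk and 90.1 ± 12 CPM in whole embryos. bmp2b was higher at 47.2 ± 8.74 CPM in yolk and 30 ± 1.79 CPM in whole embryos, but its log2 difference was -0.23 with library totals. The organizer product chrd was lower at 4.93 ± 3.29 CPM in yolk and 133 ± 21.8 CPM in whole embryos, the T-box gene tbx6 at 4.41 ± 0.982 CPM in yolk and 188 ± 31.4 CPM in whole embryos, and the Nodal antagonist lft1 at 3.27 ± 1.3 CPM in yolk and 20.1 ± 1.33 CPM in whole embryos.

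Blood and vessel genes had 3 of 21 higher and 7 lower, with a median of -0.50, and 11 did not pass. Their share of lower calls, 33.3%, was near the 29.9% of all genes. npas4l, the earliest factor of that lineage, was higher at 132 ± 53.8 CPM in yolk and 23.3 ± 4.25 CPM in whole embryos. Its targets tal1 and etv2 were lower, with tal1 at 0.151 ± 0.185 CPM in yolk and 6.5 ± 0.903 CPM in whole embryos, and etv2 at 3.95 ± 2.59 CPM in yolk and 11.7 ± 1.48 CPM in whole embryos. Heart and kidney genes had 2 of 13 higher and 7 lower, with a median of -0.96. The higher ones were cdh17 at 62.9 ± 26.3 CPM in yolk and 3.59 ± 0.595 CPM in whole embryos, and tbx5a, under 1 CPM in both tissues. Germ plasm genes had 6 of 13 higher and 4 lower, with a median of -0.80, but 4 higher and 7 lower with library totals. ddx4 had 25.2, 17.6, 27.9 and 14 CPM in yolk and 9.21, 8.66, 11.3 and 9.66 CPM in whole embryos. nanos3 was lower at 1.63 ± 0.663 CPM in yolk and 3.53 ± 0.373 CPM in whole embryos, a call lost in 11 of 17 alternative fits. Among these was the replicate block over all 32 libraries (edgeR adjusted p = 0.052), while the block on the 8 libraries of 10 hpf kept the call. Maternal factors had 9 of 14 higher and 1 lower, with a median of 1.17, and with library totals 3 higher and 2 lower. igf2bp3 averaged 567 ± 39.2 CPM in yolk and 238 ± 10.4 CPM in whole embryos, npm2b averaged 34.7 ± 10.8 CPM in yolk and 14.2 ± 3.37 CPM in whole embryos, and the pluripotency factor pou5f3 was lower at 5.43 ± 0.968 CPM in yolk and 33.7 ± 4.53 CPM in whole embryos.

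In some gene families the copies were called in opposite directions. Among 617 pairs of symbols that differ only in a final a or b, with both genes at 10 CPM or more in a tissue, 128 had such calls. Of all genes tested 24.5% were higher and 29.9% lower, so opposite calls also arise between unrelated genes. Their share in unrelated pairs was not counted, so the 128 do not show an excess among copies. Both copies were higher in 107 pairs, both were lower in 168, and in 214 at least 1 copy did not pass. With library totals 116 pairs had opposite calls, of which 67 were among the 128, and with the replicate block 148 pairs, of which 124 were among the 128. In 41 of the 128 the copies differed by 4 or more on the log2 scale. Annexins, membrane-binding proteins that depend on calcium, were the widest apart. anxa1a had 5128, 5462, 4620 and 4760 CPM in yolk, against 320, 320, 268 and 395 CPM in whole embryos, and anxa1b had 1.46, 4.5, 1.21 and 0.918 CPM in yolk, against 144, 160, 180 and 113 CPM in whole embryos. No library of either gene overlapped. anxa2b averaged 146 ± 22.4 CPM in yolk and 8.14 ± 0.739 CPM in whole embryos, and anxa2a averaged 0.437 ± 0.328 CPM in yolk and 26.3 ± 6.82 CPM in whole embryos. Of 15 annexins, 8 were higher and 4 lower, with a median of 2.19.

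Other such pairs included regulators. The ligand bmp7b averaged 20 ± 5.35 CPM in yolk and 1.81 ± 0.684 CPM in whole embryos, and bmp7a averaged 29.7 ± 4.44 CPM in yolk and 55.5 ± 3.73 CPM in whole embryos. The call of bmp7a was lost in 4 of 17 alternative fits, among them that with DESeq2 size factors (edgeR adjusted p = 0.075). The repressor snai1a averaged 722 ± 53.6 CPM in yolk and 82.5 ± 7.53 CPM in whole embryos, and snai1b averaged 7.84 ± 4.57 CPM in yolk and 85 ± 5.53 CPM in whole embryos. dmrt2b averaged 70.9 ± 15.5 CPM in yolk and 3.57 ± 0.668 CPM in whole embryos, and dmrt2a averaged 1.59 ± 0.823 CPM in yolk and 16 ± 2.69 CPM in whole embryos. Symbols alone were used, so a shared stem does not show that a pair are duplicates, and reads could be shared between copies with little difference in sequence.

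**Figure D5:**
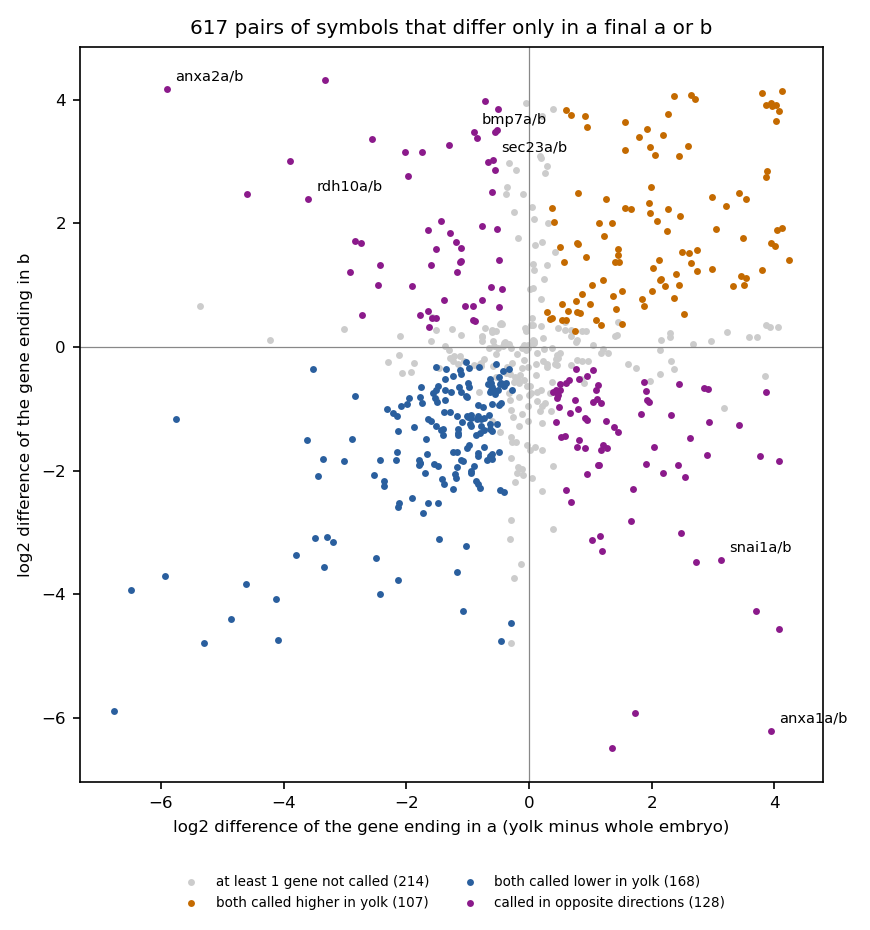
log2 difference (yolk minus whole embryo) of the gene ending in b against that of the gene ending in a, for 617 pairs of symbols. The 128 pairs called in opposite directions lie in the upper left and lower right, with anxa1a and anxa1b, and anxa2a and anxa2b, the farthest of these from the centre.

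Outside the lists, the 10 largest higher differences among genes at 10 CPM or more were rln3a, ednrab, TMEM200C, megf11, tmem82, cmya5, c1r, dmrt2b, slc2a9l2 and crip3. The relaxin gene rln3a had 21, 41.6, 34 and 46.5 CPM in yolk, against 0.487, 2.79, 0.632 and 1.45 CPM in whole embryos, and the endothelin receptor ednrab averaged 12.8 ± 3.15 CPM in yolk and 0.479 ± 0.202 CPM in whole embryos. The crip3 gene averaged 18.8 ± 3.96 CPM in yolk and 0.946 ± 0.344 CPM in whole embryos. The 10 largest lower differences were camk2d1, b3gnt3.1, ankrd31, mctp2a, scel, krt99, s100v1, olig4, cavin2b and trpm4b.2. The keratin krt99 averaged 6.54 ± 4.31 CPM in yolk and 634 ± 52.8 CPM in whole embryos, the cornified envelope gene scel averaged 0.561 ± 0.513 CPM in yolk and 55.2 ± 7.75 CPM in whole embryos, and the neural factor olig4 averaged 0.21 ± 0.19 CPM in yolk and 19.3 ± 2.96 CPM in whole embryos. Among the genes with the largest share of counts, hmga1a, a chromatin protein, took 0.295% ± 0.0157 in yolk and 1.34% ± 0.0392 in whole embryos.

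The difference between tissues at 10 hpf was also set against that at 6 and 26 hpf for 14 genes. Across all genes, 26.8% differed from 6 hpf and 29.5% from 26 hpf. Of the 14, apoa1b, apoeb, krt4 and tbxta differed from 6 hpf, and apoa1b, apoeb, krt4 and pcna from 26 hpf. For apoeb the ratio of yolk to whole embryo was 4.12-fold at 6 hpf, 8.63-fold at 10 hpf and 23.4-fold at 26 hpf. The change in log2 difference was 1.07 ± 0.28 (SE, edgeR adjusted p = 0.0046) against 6 hpf and -1.44 ± 0.28 (SE, edgeR adjusted p = 2.5e-04) against 26 hpf. For apoa1b the ratios were 8.12, 17.6 and 33.3, with 1.11 ± 0.35 (SE, edgeR adjusted p = 0.018) against 6 hpf and -0.92 ± 0.35 (SE, edgeR adjusted p = 0.048) against 26 hpf. hnf4a, hnf4b, apobb.1, mttp, pla2g12b, gata6, slc7a8a, ctsc and mxtx2 passed at neither age, so a change in their ratio was not shown. Apart from mxtx2, each log2 difference lay above that at 6 hpf and below that at 26 hpf, as for apoeb and apoa1b. The changes were 0.31 to 0.82 against 6 hpf and -0.32 to -0.89 against 26 hpf. The largest against 6 hpf was that of ctsc (0.82 ± 0.31 SE, edgeR adjusted p = 0.05). It was called in 4 of 16 fits that left out a library. Ratios at 6 hpf were 4.04 for mxtx2 and otherwise between 9.17 for ctsc and 13 for slc7a8a.

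The levels behind these ratios also differed between ages, for which no test was made within a tissue. For hnf4a the 4 yolk libraries had 1769, 1522, 1804 and 1562 CPM at 6 hpf and the whole embryos 176, 101, 139 and 138 CPM, so both tissues were lower at 10 hpf. For apobb.1 the yolk libraries had 2174, 2315, 1108 and 1491 CPM at 6 hpf, against 230, 210, 103 and 137 CPM in whole embryos, so both were higher at 10 hpf. The margin gene tbxta had 23.5, 40, 11 and 13.4 CPM in yolk at 6 hpf, against 460, 413, 479 and 433 CPM in whole embryos. Its log2 difference of -4.34 at 6 hpf became -0.15 at 10 hpf, a change of 4.2 ± 1.06 (SE, edgeR adjusted p = 0.0036). For pcna the log2 difference of -2.34 at 10 hpf compared with -1.03 at 26 hpf, a change of -1.31 ± 0.23 (SE, edgeR adjusted p = 6.6e-05).

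Single libraries of the other ages bear on these tests. For krt4 the yolk libraries of 6 hpf had 97, 966, 90.3 and 161 CPM, with replicate 2 far above the rest, and those of 26 hpf had 4811, 2310, 2243 and 270 CPM. The changes in krt4 were -2.26 ± 0.79 (SE, edgeR adjusted p = 0.034) and -3.73 ± 0.81 (SE, edgeR adjusted p = 8.5e-04). Without yolk replicate 2 of 6 hpf the change in krt4 against 6 hpf was -0.76 and did not pass (edgeR adjusted p = 0.37), so that call rests on this library. Leaving out 8 other libraries of 6 and 10 hpf, 1 at a time, also ended it, with adjusted p between 0.05 and 0.066. Yolk replicate 1 of 26 hpf held the highest krt4 and pcna of its group and the lowest hnf4a. Without it 10 of the 14 genes differed from 26 hpf in place of 4, with hnf4b, apobb.1, mttp, pla2g12b, gata6 and tbxta added. The change was then -1.06 for hnf4b and -1.09 for apobb.1 (edgeR adjusted p = 0.0053 and 0.011). The change in apoa1b against 26 hpf was lost in 13 of 16 fits that left out a library and under both other scalings. It was also lost with the replicate block over all 32 libraries (edgeR adjusted p = 0.057 with that block). Against 6 hpf it was lost with library totals (edgeR adjusted p = 0.11). The replicate block over all 32 libraries added ctsc against 6 hpf and tbxta against 26 hpf (edgeR adjusted p = 0.033 and 0.046).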

How the data were processed

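Bulk RNA-seq was made of yolk tissue and of whole wild type embryos. Per the labels' protocols, TRIzol was used for RNA extraction and a NEBNext Ultra II kit for library preparation. The authors deposited raw counts by gene symbol, with each library in its own column and no normalization, as the whole numbers in the table show. The submitters' processing notes name GRCz11 and the tools STAR 2.7.10b, an aligner, featureCounts 2.0.6, a read counter, Trim Galore 0.6.10 and FastQC 0.12.1, with no order or options. Whether strand was used, and which annotation, is not given in the sources, so antisense and overlapping genes could not be told apart. The 16 samples of body tissue were not analysed here. Groups and replicate numbers came from the sample titles.

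The filterByExpr limits (10 counts per library, 15 in total) left 26268 of 36109 genes, and 2752 were at 0 in every library. TMM factors and the robust quasi-likelihood fit of edgeR 4.0.16 (R 4.3.3) were used, with 8 group means over the 32 libraries of 6, 10, 26 and 48 hpf. This left 24 residual degrees of freedom, at a common dispersion of 0.172. Two-sided tests were adjusted by Benjamini-Hochberg over all 26268 genes, and an adjusted p under 0.05 was called. Standard errors are the log2 difference over the root of its F statistic. glmTreat tested a difference beyond 2-fold. The fit was first tested on simulated data. There it called 44% of 100 genes changed 2-fold and 81% of 100 genes changed 4-fold. Of its calls, 3.1% were of unchanged genes. A gene that did not pass may thus still differ. Promoter motifs, planned with the lists, were not analysed here.

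The comparison, its members and 34 gene lists were chosen with earlier results of these data known. Changes are given relative to the TMM scale. Members were matched by symbol, 7 through a RefSeq synonym, and 11 symbols were unmatched. Named genes were 14 focal genes; up to 4 members of a list with the largest called difference at 10 CPM or more in the higher tissue; its 2 most abundant members; called members against the list's main direction; the 10 largest differences per direction outside the lists, with no overlap between tissues, no provisional symbol and the same minimum; and the 5 largest shares of counts per tissue. The text names a selection of these, and further list members, pairs of copies and relatives were named after their values were seen. Values of a few list members are not reported here.

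Library totals were 34338597 to 38073999 counts, and no libraries agreed within sampling noise (chi-square per gene at least 26.5). Deviations from the group mean correlated between libraries of the same number, at 0.178, 0.364, 0.171 and 0.319 over 9279 genes. Other pairs reached at most 0.095. Deviations from a group mean cancel out within the group, which lowers the values of the other pairs, so these are no separate comparison. Libraries of the same number thus deviated together and were taken as pairs, which the main fit leaves out. This pairing was read from the values, since no label gives the meaning of a number. Blocked values are printed where a call changed or a list count moved by over 1.5 times. Other alternatives were DESeq2 1.42.0 size factors and its Wald test, library totals, no filter, a fit of the 8 libraries only, and a fit with no mitochondrially encoded genes. The replicate block was fitted on the 8 libraries of 10 hpf and on all 32 libraries. On the 32 libraries it treats a replicate number as the same block at every age, which the labels do not state. Where the text does not say which, the block on the 8 libraries is meant. Each library of 10 hpf, and yolk replicate 1 of 26 hpf, was also left out. Removal of the libraries of 6 and 26 hpf in turn was added after the values were seen.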

Additional observations from a re-analysis of the deposited data

Results flagged for a closer look

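For each named gene the highest and the lowest of 4 libraries in a tissue were compared with the others by the gap to the nearest of them, relative to the range. In 17 of 519 such groups the gap passed the critical value of Dixon. Chance gives about 1 in 20 groups, so this number is no excess. In yolk, replicate 2 was high for anxa1b at 4.5 CPM against 0.918 to 1.46 CPM in the others, for atp6v0ca at 717 CPM against 605 to 619 CPM and for lft1 at 5.21 CPM against 2.5 to 2.75 CPM. Yolk replicate 3 was high for cdh17 at 102 CPM against 47.8 to 52.2 CPM, for fga at 15.4 CPM against 7.35 to 8.39 CPM and for nanos3 at 2.62 CPM against 1.23 to 1.38 CPM. Yolk replicate 4 was high for cd36 at 466 CPM, fetub at 24719 CPM and slc40a1 at 30.5 CPM, and low for wnt11f2 at 17 CPM. Yolk replicate 1 was low for ccnb3 at 30.3 CPM. In whole embryos replicate 3 was high for apoeb at 3625 CPM against 3106 to 3174 CPM and for canx at 790 CPM, and low for apobb.2 at 17.5 CPM. Whole-embryo replicate 4 was high for tbxta at 84.3 CPM, replicate 1 was high for fdft1 at 2.88 CPM against 1.35 CPM in the others, and replicate 2 was low for b3gnt3.1 at 12.7 CPM. Of these genes, the 2 tissues overlapped for wnt11f2, ccnb3 and tbxta.

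The difference between yolk and whole embryo itself differed between ages, by edgeR tests of the difference of log2 differences, for apoa1b (1.11 against 6 hpf and -0.92 against 26 hpf), apoeb (1.07 and -1.44), krt4 (-2.26 and -3.73), tbxta (4.2 against 6 hpf) and pcna (-1.31 against 26 hpf). The value of krt4 against 6 hpf was -0.76 and did not pass without yolk replicate 2 of 6 hpf.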

How the results depend on the processing

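With library totals in place of TMM, 3931 genes were higher in yolk and 12344 lower, against 6448 and 7859, and beyond 2-fold the numbers were 2532 and 8496, against 4154 and 3922. This follows from the scale, which moved the median of all genes by -0.87 on the log2 scale. Changes of sign of the log2 difference were counted only in named genes called on either scale. They were found for aldoaa (-0.84), bmp2b (-0.23), eef1a1l1 (-0.05), lamc1 (-0.17), lgmn (-0.65), sar1b (-0.7), srebf1 (-0.13) and tpp1 (-0.41). Of these, bmp2b, eef1a1l1, lamc1 and srebf1 had passed with TMM. With no change of sign, 15 further named genes lost their call under library totals and 17 gained one, all as lower in yolk. Those that lost it were acacb, calr, dand5, ddx4, fdft1, foxa1, foxc1b, gmnn, hmgcrb, hnf4g, hspa5, lss, npm2b, p4hb and rps27l. Those that gained one were ascl1b, atp6v1e1a, ccnb3, cdt1, cxcr4a, cyp17a1, gbx2, hadhaa, her5, hoxb1b, lamp1b, pcxa, pparaa, serpinf1, srebf2, ved and wnt11f2. That these genes did not pass thus depends on the scale. The median ratio of genes above 8-fold was 8.72 over 315 genes with library totals and 14.4 over 973 genes in pair 2, against 13.2 over 953 genes. Leaving out each library of 10 hpf in turn gave 6025 to 6268 genes higher and 7341 to 7520 lower, and beyond 2-fold 3886 to 4039 and 3639 to 3785. The DESeq2 Wald test gave 7504 and 7287, and the replicate block on the 8 libraries 6499 and 7152. Leaving out 1 library of the ages compared gave 3 to 5 focal genes that differed from 6 hpf and 3 to 4 that differed from 26 hpf, except for 10 without yolk replicate 1 of 26 hpf; the cause was not tested. Of 294 named genes, 238 kept their side of the threshold in all settings that could be fitted, with no change of sign while called. Changes of sign in genes called in neither of the fits compared were not counted. Apart from the values given in the report, the replicate block changed no call of a named gene. The fit of the 8 libraries of 10 hpf with no block changed the same calls as the block on these libraries, and also lost that of gusb. The changes with that block are therefore not particular to the replicate term. The call of hnf4g, which was under 1 CPM in both tissues, was lost in 11 of 17 fits. Whether depth bears on such losses was not tested.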

Other observations

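Genes of 4 further groups were listed after the values had been seen, and no list test was made. Of 18 genes of antioxidant and metal response 8 were higher in yolk and 5 lower, with a median log2 difference of 0.43, but 5 were higher and 7 lower with library totals. Of 17 genes of steroid hormone synthesis 5 were higher in yolk and 0 lower, with a median of 0.75, and 3 were higher and 4 lower with library totals. The share of higher calls, 29.4%, was near the 24.5% of all genes. cyp11a1, which cleaves the cholesterol side chain, averaged 1923 ± 235 CPM in yolk and 109 ± 19.8 CPM in whole embryos, and hsd3b2, the next enzyme, averaged 5228 ± 400 CPM in yolk and 322 ± 34.9 CPM in whole embryos. The later enzymes cyp17a1 and cyp21a2 were near or below 2 CPM in both tissues and did not pass the edgeR test. However, 4 of 15 alternative fits called cyp21a2 higher. With library totals cyp17a1 was lower (log2 difference -1.69, edgeR adjusted p = 0.0062). Of 16 genes of creatine and one-carbon metabolism 9 were higher and 2 lower, with a median of 0.64, and with library totals 7 were higher and 6 lower. Both enzymes of creatine synthesis were among the higher ones, with gatm at 7707 ± 1043 CPM in yolk and 470 ± 68.7 CPM in whole embryos and gamt at 1223 ± 193 CPM in yolk and 74.4 ± 17.7 CPM in whole embryos, whereas the creatine carrier slc6a8 was under 1 CPM in both tissues. The folate enzyme mthfd1b averaged 2720 ± 319 CPM in yolk and 232 ± 8.86 CPM in whole embryos, and dhfr was lower at 13.4 ± 1.59 CPM in yolk and 49.7 ± 3.09 CPM in whole embryos. Of 8 carriers of carnitine and organic cations 5 were higher and 0 lower, or 4 and 0 with library totals, with slc22a5, the carnitine importer, at 2451 ± 1014 CPM in yolk and 134 ± 27.5 CPM in whole embryos.

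The gene tmem37 had 47, 4.16, 37.5 and 1.38 CPM in the 4 yolk libraries, in replicate order, against 2.88, 0.3, 1.48 and 0.0 CPM in whole embryos. It was high in replicates 1 and 3 of both tissues and low in replicates 2 and 4. This gene was chosen after its values were seen, and what the replicate numbers mark is not given in the labels.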
